A study of Mus musculus with 6 samples.

Results

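Testis retrogenes are intronless copies of housekeeping genes that arose by reverse transcription of a messenger RNA and are used in male germ cells. The 10 genes described here form 5 pairs of an autosomal retrogene and its X-linked parent: Pgk2 and Pgk1, Pdha2 and Pdha1, Utp14b and Utp14a, Cetn1 and Cetn2, and Rpl10l and Rpl10. They were listed by symbol, and they are 10 of the 17926 genes tested, out of 19939 named on the array. For each gene the transcript cluster of highest mean over the 6 arrays was read. All 10 were found, and all 10 passed the filter on low values, at log2 6 or above on all 6 arrays.

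RNA of germ cells from C57BL/6 mice was hybridised to MoGene 1.0 ST arrays, which give a value per transcript cluster in 1 colour. Round spermatids (RS), the haploid cells that follow meiosis, gave 1 array from Rnf8 knockout (KO) males and 1 from wild-type (WT) males. Pachytene spermatocytes (PS), the cells of late meiotic prophase, gave 2 arrays from KO and 2 from WT males. The product of Rnf8 is a ubiquitin ligase that acts at DNA breaks and on the silenced sex chromosomes in meiosis. No treatment is named, and no ages are given. The cells were sedimented through albumin and came from 3 to 4 males of a genotype. Nothing in the labels tells whether the arrays of a group hold separate animals or preparations, so the p-values below cover the spread between arrays, and that spread may be technical. The values are per array and not per cell, so a change in the make-up of a fraction and a change in RNA per cell cannot be told apart.

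In male meiosis the X and Y chromosomes are condensed in the sex body and silenced at the pachytene stage. Housekeeping genes on the X are silenced with it, and an autosomal copy that remains active can supply the missing product. After meiosis many X-linked genes stay low in round spermatids, whereas some are transcribed again.

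Most markers of the labelled cell types moved between the fractions in the direction of the labels. Of 7 pachytene markers, 6 were lower in round spermatids in limma (Mael was not), and of 8 spermatid markers, 6 were higher (Prm1 and Prm2 were not). These 2 were also bright on the pachytene arrays, where Prm1 read log2 12.85 to 13.18 and Prm2 13.25 to 13.44. Other cell types also moved between the fractions. The summed intensity of 5 Leydig cell markers was 1153 in KO and 933.2 in WT round spermatids, against 4276 to 6518 in pachytene spermatocytes, and all 5 fell. For 7 Sertoli cell markers it was 4356 and 3635, against 6677 to 8345, and 6 of 7 fell. The decorin gene Dcn rose, alone among 5 peritubular and vessel markers, as did Adgre1 among 4 macrophage and blood markers and Dmrt1 among 6 spermatogonial markers. No marker was listed at 0, but intensities of these arrays do not reach 0, so this does not tell which cell types were present. The part of these cells in the results below was not tested. The KO pachytene arrays differed at least 2-fold from each other at 183 genes and the WT pachytene arrays at 29. The only cluster of Rnf8, shared with the readthrough gene Gm28043, read 7.50 in KO and 7.78 in WT round spermatids, and 7.86 and 8.05 in KO against 8.51 and 8.86 in WT pachytene spermatocytes (log2 intensity).

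RefSeq promoter windows of assembly GRCm38.p6, from 250 bases before to 50 bases after the annotated start, were given for 9 of the 10 genes. Cetn1 had no entry. The windows of Pgk2 and Cetn2, whose levels changed between the cell types, of Utp14b, whose shared cluster changed, and of Pgk1, the parent of Pgk2, are printed 5′ to 3′. Each CpG dinucleotide is in capitals, because the number of CpGs differs between retrogene and parent, though not in the same direction in every pair. The Pgk2 window is at chr17:40208560-40208859 (minus strand), the Pgk1 window at chrX:106186850-106187149 (plus strand), the Utp14b window at chr1:78658190-78658489 (plus strand) and the Cetn2 window at chrX:72918295-72918594 (minus strand).
Pgk2: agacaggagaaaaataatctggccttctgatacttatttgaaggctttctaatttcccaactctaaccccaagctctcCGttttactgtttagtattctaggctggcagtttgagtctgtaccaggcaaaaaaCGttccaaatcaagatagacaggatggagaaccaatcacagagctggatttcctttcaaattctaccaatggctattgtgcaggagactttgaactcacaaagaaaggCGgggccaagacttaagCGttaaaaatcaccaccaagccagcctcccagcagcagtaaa
Pgk1: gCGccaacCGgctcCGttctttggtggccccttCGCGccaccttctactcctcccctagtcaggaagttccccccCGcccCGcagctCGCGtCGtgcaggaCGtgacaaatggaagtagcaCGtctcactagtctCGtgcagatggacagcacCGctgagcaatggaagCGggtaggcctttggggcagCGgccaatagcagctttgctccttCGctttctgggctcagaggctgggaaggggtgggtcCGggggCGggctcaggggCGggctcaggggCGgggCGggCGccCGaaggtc
Utp14b: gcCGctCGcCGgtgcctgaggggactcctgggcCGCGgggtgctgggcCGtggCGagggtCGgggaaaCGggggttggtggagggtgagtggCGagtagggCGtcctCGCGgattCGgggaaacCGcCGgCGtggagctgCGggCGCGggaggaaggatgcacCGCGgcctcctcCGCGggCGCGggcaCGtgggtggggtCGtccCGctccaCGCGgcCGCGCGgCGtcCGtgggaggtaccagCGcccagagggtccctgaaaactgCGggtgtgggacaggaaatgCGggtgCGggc
Cetn2: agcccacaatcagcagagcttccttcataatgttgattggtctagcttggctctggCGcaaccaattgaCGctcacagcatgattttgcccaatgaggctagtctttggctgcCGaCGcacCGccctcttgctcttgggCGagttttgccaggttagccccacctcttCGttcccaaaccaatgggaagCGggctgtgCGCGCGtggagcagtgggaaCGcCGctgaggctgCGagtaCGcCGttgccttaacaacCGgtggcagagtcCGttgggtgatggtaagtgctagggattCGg

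The retrogene Pgk2 has 4 CpGs in its window, as has Pdha2, whereas their parents have 24 (Pgk1) and 21 (Pdha1). The median over 32851 RefSeq promoters was 7. The Utp14b window differs from these, with 40 CpGs and a GC content of 75.0%, against 21 CpGs and 54.7% for its parent Utp14a, and 3.5% of all promoters have more CpGs. RefSeq gives Utp14b the same first base as Acsl3, the gene that contains it, and the windows of the 2 genes lie 615 bases apart. The CpGs of the Utp14b window can therefore not be assigned to the retrogene alone. Rpl10l has 13 and Rpl10 has 17, and Cetn2 has 19. All 5 parents lay above the median of all promoters, between 17 and 24 CpGs, while the 4 retrogenes with a window ran between 4 and 40.

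Short promoter motifs were counted on both strands. CCAAT (or ATTGG) occurred in 37.4% of all promoters and in the windows of Pgk2, Pgk1, Utp14a, Cetn2 and Rpl10. In Pgk2 it begins 86 and 52 bases before the start and in Pgk1 58 bases before it, and Cetn2 has 4 matches. The GC box GGGCGG (or CCGCCC), in 35.7% of promoters, was matched in Pgk1, Utp14a, Cetn2, Rpl10l and Rpl10. Of its 5 matches in Pgk1, the last pair overlap. TATAAA (or TTTATA), in 13.6% of promoters, was matched in Pdha2 alone of the 9, beginning 44 bases before the start. The palindromic cAMP response element TGACGTCA, in 1.79% of promoters, was matched in none, and its shorter form TGACG (or CGTCA), in 20.8%, in Pdha1, Utp14a and Cetn2. A match describes the letters of a window and is not a site of binding.

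Round spermatids were first compared with pachytene spermatocytes over both genotypes. The phosphoglycerate kinase retrogene Pgk2 rose 1.58-fold, the X-linked centrin gene Cetn2 rose 2.41-fold, and the cluster annotated to Utp14b and Acsl3 fell 2.08-fold. The other 7 genes did not pass. In limma, with an additive term for genotype and adjustment over all 17926 genes, 3 of 10 members passed an adjusted p of 0.05, 2 higher and 1 lower, against 34.9% of all genes, of which 17.8% were higher and 17.1% lower. The share is close to that of all genes. The median log2 difference was 0.34 over the 5 parents, all of them above 0, and -0.07 over the 5 retrogenes, 2 of them above 0, beside -0.06 over all genes tested. On the X, 40.2% of 624 genes tested were called higher, with a median of 0.20, and of the 5 parents 1 was called higher. Both spermatid arrays lay outside the range of the 4 pachytene arrays for 7 of the 10 members, 5 above and 2 below with no tolerance set (Utp14a was above by a margin of 0.0006 only), against 50.5% of all genes, 24.1% above and 26.4% below.

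**Figure D1:**
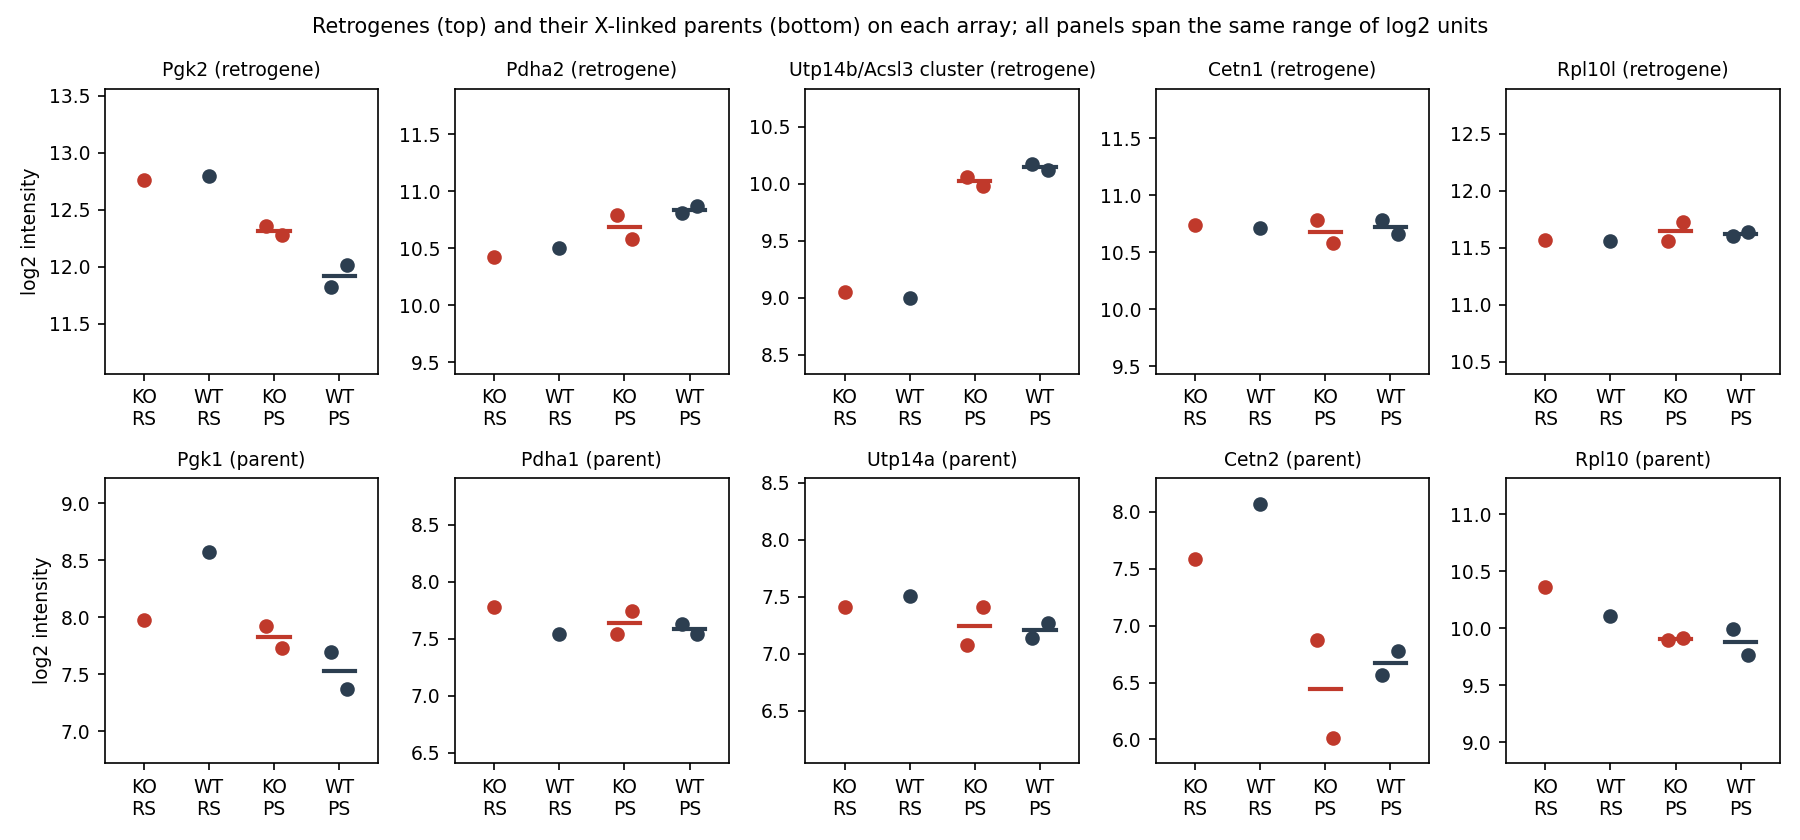
Log2 intensity (y axis, all panels spanning the same range) of the 5 retrogenes (top row) and their parents (bottom row) in KO and WT round spermatids (RS) and KO and WT pachytene spermatocytes (PS). Each point is 1 array and each line a mean of 2 arrays. Cetn2 and Pgk2 are above, and the Utp14b and Acsl3 cluster below, all pachytene arrays on both spermatid arrays.

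Pgk2 and Pgk1 encode phosphoglycerate kinase, the first enzyme of glycolysis to yield ATP. Pgk2 is the isozyme of meiotic and later male germ cells and is needed for normal sperm motility. The log2 intensity of Pgk2 was 12.76 in KO and 12.80 in WT round spermatids, against 12.36 and 12.27 on the KO and 11.82 and 12.01 on the WT pachytene arrays. Both spermatid arrays lay above all 4 pachytene arrays and differed by less than either pachytene pair. The difference was 0.66 (SE 0.13, limma adjusted p = 0.00597). Without the WT spermatid array it was 0.45 with adjusted p = 0.175 and did not pass.

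The parent Pgk1 read 7.97 in KO and 8.57 in WT round spermatids, against 7.92 and 7.73 on the KO and 7.69 and 7.37 on the WT pachytene arrays. The WT spermatid array stood well above the rest, and the KO spermatid array was just above the higher KO pachytene array. The difference over both genotypes was 0.59 (SE 0.21, adjusted p = 0.0588) and did not pass. It passed without the first KO pachytene array (0.70, adjusted p = 0.0267), without the second (0.62, adjusted p = 0.0474) and without the KO spermatid array (1.04, adjusted p = 0.0147). It was 0.15 without the WT spermatid array (adjusted p = 0.817), 0.60 without the first WT pachytene array (adjusted p = 0.126) and 0.46 without the second (adjusted p = 0.151). Pgk1 has 3 clusters, 2 of them with the same values on every array, and their differences between the cell types ran from 0.57 to 0.59.

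Pdha2 and Pdha1 encode the E1 alpha subunit of the pyruvate dehydrogenase complex, which links glycolysis to the citric acid cycle. Pdha2 read 10.43 in KO and 10.50 in WT round spermatids, against 10.79 and 10.58 on the KO and 10.81 and 10.87 on the WT pachytene arrays. Both spermatid arrays were below all pachytene arrays, the second KO pachytene array being nearest to them. The difference of -0.30 (SE 0.11, limma adjusted p = 0.075) did not pass. It passed without the first KO pachytene array (-0.26, adjusted p = 0.046) and without the second (-0.35, adjusted p = 0.0398). It did not pass without the first WT pachytene array (-0.31, adjusted p = 0.161) or the second (-0.28, adjusted p = 0.184). Nor did it pass without the KO (-0.34) or the WT spermatid array (-0.26).

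Pdha1 read 7.78 in KO and 7.54 in WT round spermatids, against 7.54 and 7.74 on the KO and 7.63 and 7.54 on the WT pachytene arrays. The cell types overlapped, with a difference of 0.05 (SE 0.12, adjusted p = 0.794). It was the smallest difference among the 5 parents in the additive fit.

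Utp14b and Utp14a encode a component of the small-subunit processome, the nucleolar particle that processes ribosomal RNA. Mice with a mutated Utp14b lose spermatogenesis after the first rounds. The retrogene lies within Acsl3, an acyl-CoA synthetase gene, and its only cluster on the array is annotated to both genes, so its values cannot be assigned to either. The cluster read 9.05 in KO and 8.99 in WT round spermatids, against 10.06 and 9.98 on the KO and 10.17 and 10.12 on the WT pachytene arrays. The cell types were far apart and the arrays within each close together. The cluster fell by 1.06 (SE 0.11, limma adjusted p = 0.000303), and it was called under all 13 alternatives run for this comparison, with adjusted p between 0.000125 and 0.0152. Pachytene, Sertoli and Leydig cell markers fell with it, at the sums given above for the last 2 lists and at 16400 in KO and 17071 in WT round spermatids against 30719 to 35175 in pachytene spermatocytes for the first.

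The parent Utp14a read 7.41 in KO and 7.50 in WT round spermatids, against 7.08 and 7.41 on the KO and 7.14 and 7.27 on the WT pachytene arrays. The KO spermatid array and the second KO pachytene array were level. The difference of 0.23 (SE 0.13, adjusted p = 0.219) did not pass.

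Cetn1 and Cetn2 encode centrins, calcium-binding proteins of centrioles and basal bodies. Cetn1 is the form of male germ cells and ciliated cells, and Cetn2 also belongs to a DNA damage recognition complex with Xpc. Cetn1 read 10.74 in KO and 10.72 in WT round spermatids, against 10.78 and 10.58 on the KO and 10.79 and 10.66 on the WT pachytene arrays. Both spermatid arrays lay inside the pachytene range, with a difference of 0.02 (SE 0.11, limma adjusted p = 0.901).

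Cetn2 read 7.58 in KO and 8.07 in WT round spermatids, against 6.87 and 6.02 on the KO and 6.57 and 6.77 on the WT pachytene arrays. Both spermatid arrays were above all pachytene arrays, and the second KO pachytene array was the lowest. Cetn2 rose by 1.27 (SE 0.22, adjusted p = 0.00303), more than any other member. Without the WT spermatid array the difference was 1.14 with adjusted p = 0.0615. The pachytene values are low in the range of these arrays. Over all clusters the lower quartiles lay between log2 6.15 and 6.28 and the medians between 7.62 and 7.77. The summed intensity of the 8 spermatid markers was 48918 in KO and 51160 in WT round spermatids, against 37879 and 30097 on the KO and 32915 and 30463 on the WT pachytene arrays. The first KO pachytene array was thus above the second both for these markers and for Cetn2, there by 0.86. In the WT pachytene pair the 2 orders were opposite. The first WT array was above the second for these markers and below it for Cetn2 (6.57 against 6.77). The part of spermatid RNA in the Cetn2 values was not tested.

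Rpl10l and Rpl10 encode a protein of the large ribosomal subunit needed for the joining of the subunits, and male mice without Rpl10l arrest in meiosis. Rpl10l read 11.57 in KO and 11.56 in WT round spermatids, against 11.56 and 11.72 on the KO and 11.61 and 11.64 on the WT pachytene arrays. The cell types overlapped, and the difference was -0.07 (SE 0.11, limma adjusted p = 0.685). Rpl10 read 10.36 in KO and 10.11 in WT round spermatids, against 9.89 and 9.91 on the KO and 9.99 and 9.77 on the WT pachytene arrays. Both spermatid arrays were above all pachytene arrays, but the difference of 0.34 (SE 0.12, adjusted p = 0.0582) did not pass. It passed without the first KO pachytene array (0.32, adjusted p = 0.0455). Without the KO spermatid array it was 0.23 (adjusted p = 0.508), and without each of the other 4 arrays it lay between 0.31 and 0.46 with adjusted p between 0.0548 and 0.169. Rpl10 has 6 clusters, whose differences ran from 0.28 to 0.38. A retrogene and its parent share sequence, and whether their probes read each other's transcript was not tested for any of the 5 pairs.

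**Figure D2:**
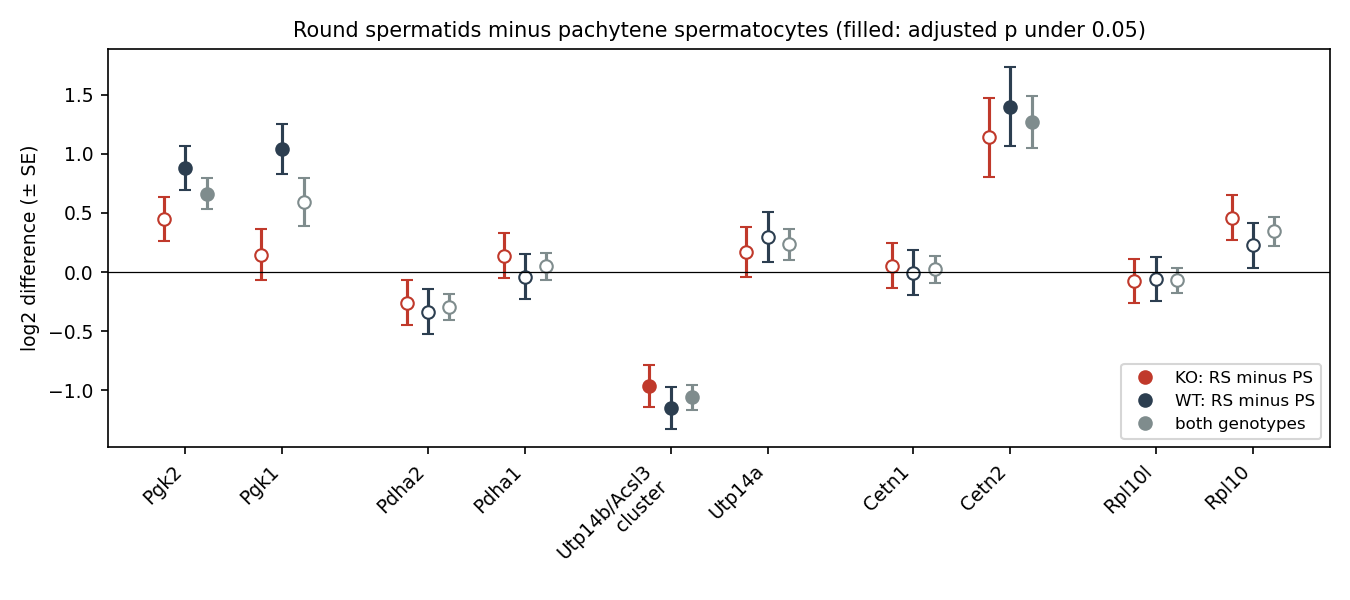
Log2 difference, round spermatids (RS) minus pachytene spermatocytes (PS), for each member in KO, in WT and over both genotypes (y axis; points with SE from limma; filled where the adjusted p is under 0.05). The Utp14b and Acsl3 cluster is below 0 and filled in all 3 fits, and Pgk2 and Cetn2 are filled in WT and over both genotypes.

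Within each genotype the same comparison rests on 1 spermatid array, which is assumed to vary like the pachytene pairs. The comparison in KO gives the same values as the additive fit without the WT spermatid array. That in WT gives the same values as the additive fit without the KO spermatid array. Values given under both names are thus the same result and do not back each other. In KO, 1 of 10 members was called, the Utp14b and Acsl3 cluster at -0.97 (SE 0.18, limma adjusted p = 0.0152), against 15.5% of all genes (8.36% higher, 7.19% lower). Without the first or without the second WT pachytene array its adjusted p was 0.0517. In KO, Cetn2 at 1.14 did not pass (SE 0.33, adjusted p = 0.0615), though it did without the first KO pachytene array (1.57, adjusted p = 0.00637) or the second (0.71, adjusted p = 0.0404). Pgk2 at 0.45 and Pgk1 at 0.15 did not pass in KO either.

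In WT, 4 of 10 members were called, 3 higher and 1 lower, against 20.0% of all genes (11.5% higher, 8.45% lower). Cetn2 rose by 1.40 (SE 0.33, adjusted p = 0.0251), Pgk1 by 1.04 (SE 0.21, adjusted p = 0.0147) and Pgk2 by 0.88 (SE 0.19, adjusted p = 0.0169), and the Utp14b and Acsl3 cluster fell by 1.15 (SE 0.18, adjusted p = 0.00666). Parent and retrogene of the phosphoglycerate kinase pair were thus both called in WT. Without the first WT pachytene array Pgk2 (0.78, adjusted p = 0.164) and Cetn2 (1.30, adjusted p = 0.0828) did not pass. Without the second, Pgk2 (0.98, adjusted p = 0.087), Cetn2 (1.50, adjusted p = 0.0541) and Pgk1 (0.88, adjusted p = 0.129) did not. The sizes of these differences changed little, and each such fit has fewer arrays behind its spread.

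Whether a member's difference between the cell types itself differed with genotype was tested as the interaction. Pgk1 had the largest, at -0.89 (SE 0.30, KO minus WT), with an unadjusted p of 0.0203 and an adjusted p of 1 in limma. For Pgk2 it was -0.43 (SE 0.27, adjusted p = 1). No member and 0% of all genes passed, with 1 member and 130 of all genes at an unadjusted p under 0.05. The calls made in WT and not in KO are therefore not shown to differ between the genotypes.

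Each array also gives the ratio of a retrogene to its parent, whose change between cell types was compared. The offset of 32 before the log, which dampens dim clusters such as Cetn2, moved the Cetn shift given below to -1.01. The log2 ratio of Utp14b and Acsl3 cluster to Utp14a was 1.64 in KO and 1.49 in WT round spermatids, against 2.57 to 3.03 on the pachytene arrays, a shift of -1.29. Here the cluster fell while the parent did not pass. The ratio of Cetn1 to Cetn2 was 3.15 in KO and 2.65 in WT round spermatids, against 3.88 to 4.57, a shift of -1.25. Here the parent rose while the retrogene did not pass. The ratio of Rpl10l to Rpl10 was 1.20 in KO and 1.45 in WT round spermatids, against 1.61 to 1.87, a shift of -0.41. In these 3 pairs both spermatid arrays were below all 4 pachytene arrays. Among single genes 26.4% were below in this way, and 50.5% did not overlap in either direction. The share among ratios of other genes was not computed.

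The other pairs overlapped. The ratio of Pdha2 to Pdha1 shifted by -0.35, with 2.65 in KO and 2.96 in WT round spermatids against 2.84 to 3.33, and by -0.19 without the KO and -0.50 without the WT spermatid array. The ratio of Pgk2 to Pgk1 shifted by 0.07, with 4.79 in KO and 4.23 in WT round spermatids against 4.13 to 4.65. Its sign depended on the arrays used. The shift was -0.21 without the KO spermatid array, -0.03 without the first WT pachytene array and 0.35 without the WT spermatid array. In the exact two-sided permutation test over arrays, 2 against 4 arrays allow 15 assignments and no p below 0.133. That value was reached by the Utp14, Cetn and Rpl10 pairs (0.222 adjusted over the 5 pairs), with an exact p of 0.267 for the Pdha pair and 0.8 for the Pgk pair. No pair can pass 0.05 in this design.

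**Figure D3:**
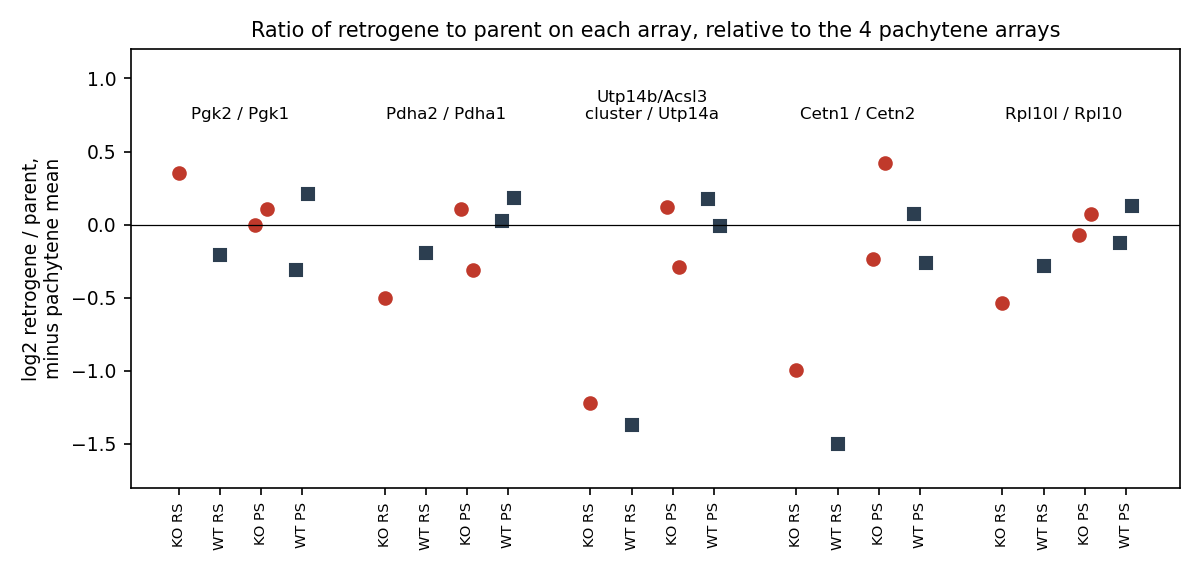
Log2 ratio of retrogene to parent on each array, minus its mean over the 4 pachytene arrays (y axis), for the 5 pairs in KO and WT round spermatids (RS) and KO and WT pachytene spermatocytes (PS). Points are single arrays, circles KO and squares WT. The spermatid arrays of the Utp14 and Cetn pairs sit lowest, and those of the Pgk pair sit on either side of 0.

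Loss of Rnf8 was next compared within a cell type. In pachytene spermatocytes no member was called between KO and WT in limma, and 0% of all genes were (smallest adjusted p 0.414 over all genes). At an unadjusted p under 0.05 there were 1 of the 10 members and 430 of all genes. That member was Pgk2, at 12.36 and 12.27 in KO against 11.82 and 12.01 in WT pachytene spermatocytes, a difference of 0.40 (SE 0.15, unadjusted p = 0.0352, adjusted p = 1). Pgk2 lies on chromosome 17, as Rnf8 does, and whether the chromosome around the knocked-out gene differs between the genotypes was not tested.

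Both KO pachytene arrays were above both WT arrays for Pgk2 and Pgk1 and below them for Pdha2 and the Utp14b and Acsl3 cluster, 4 of 10 members against 25.0% of all genes (14.8% above, 10.2% below). The differences were 0.30 for Pgk1 (SE 0.17), -0.15 for Pdha2 (SE 0.15) and -0.12 for the cluster (SE 0.15), each with adjusted p = 1. With each pachytene array left out they ran from 0.13 to 0.46 for Pgk1, from -0.26 to -0.04 for Pdha2 and from -0.16 to -0.09 for the cluster. The 2 genes on the higher side are a retrogene and its own parent, and none of the 4 was called. In round spermatids, with 1 array per genotype, KO minus WT was -0.03 for Pgk2 and -0.60 for Pgk1. For the remaining 6 members the KO and WT pachytene arrays overlapped, with differences in pachytene spermatocytes from -0.23 (Cetn2, SE 0.27) to 0.06 (Pdha1, SE 0.16). The Cetn2 difference was -0.66 without the first and 0.20 without the second KO pachytene array.

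In round spermatids there is 1 array of each genotype, so members at least 2-fold apart were counted. None of the 10 members differed at least 2-fold, as 0.385% of all genes did. Pgk1 differed most, with 7.97 in KO and 8.57 in WT, a difference of -0.60 or 1.51-fold, followed by Cetn2 with 7.58 in KO and 8.07 in WT, a difference of -0.49. The pachytene arrays of a genotype lay 0.19 (KO) and 0.32 (WT) apart for Pgk1 and 0.86 (KO) and 0.21 (WT) apart for Cetn2. The fit of 4 groups in limma, which lends the spread of the pachytene pairs to the lone arrays, called 0 members. It gave an unadjusted p under 0.05 for 1 of them, Pgk1 (SE 0.25, unadjusted p = 0.0446, adjusted p = 1). Rpl10 was 0.26 and Pdha1 0.23 higher in KO, and the other 6 differed by -0.09 to 0.06. Pgk2, the member with the largest difference in pachytene spermatocytes, differed by -0.03.

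**Figure D4:**
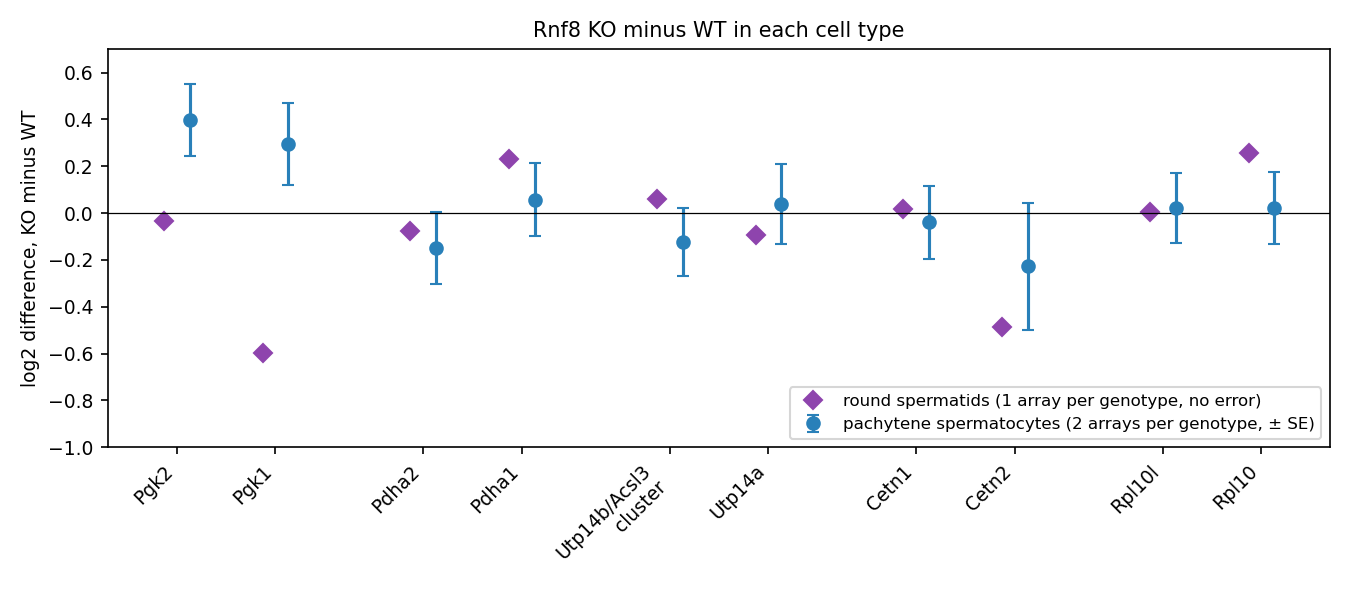
Log2 difference, KO minus WT, for each member in round spermatids (diamonds, 1 array per genotype, no error) and pachytene spermatocytes (circles, 2 arrays per genotype, with SE from limma). No member passed in pachytene spermatocytes. Pgk1 is at -0.60 in round spermatids and at 0.30 in pachytene spermatocytes.

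Over both cell types, with 3 KO and 3 WT arrays, no member and 0% of all genes passed. At an unadjusted p under 0.05 there were 0 members and 979 of all genes. Cetn2 at -0.31 (SE 0.21, limma adjusted p = 0.892) and Pgk2 at 0.25 (SE 0.13, adjusted p = 0.892) had the largest differences among the members.

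The partners of the members were counted over both genotypes, round spermatids against pachytene spermatocytes. Of 11 genes of the pyruvate dehydrogenase complex and its regulators, 2 were higher and 2 lower, with a median of -0.18, against 17.8% higher and 17.1% lower and a median of -0.06 for all genes. The share called is thus near that of all genes. The X-linked kinase gene Pdk3, whose product switches the complex off, rose by 1.60 (SE 0.19), and the phosphatase gene Pdp1, whose product switches it on, rose by 1.33 (SE 0.11). Pdhb, which encodes the beta subunit that pairs with Pdha1 or Pdha2, fell by 0.45 (SE 0.15), and Dlat, the E2 subunit, fell by 0.34 (SE 0.11).

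Of 15 components of the small-subunit processome, 7 were lower and 1 higher, with a median of -0.37, against 17.1% lower, 17.8% higher and a median of -0.06 for all genes. Mphosph10 fell by 1.63 (SE 0.17) and Noc4l by 0.81 (SE 0.11), and Imp3, Imp4, Utp20, Bms1 and Dhx37 fell by 0.37 to 0.53. Nop14 rose by 0.61 (SE 0.11). Of 6 factors for export and joining of the large subunit that carries Rpl10, 3 were lower and 1 higher, with a median of -0.40: Lsg1 fell by 0.63, the antiassociation factor gene Eif6 by 0.59 and Sbds by 0.42, and Grwd1 rose by 0.40. None of 5 centrin relatives and partners (Cetn3, Cetn4, Sfi1, Poc5 and Xpc) was called, and all lay between -0.27 and 0.02.

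Of 14 glycolysis genes listed, 11 were tested, 4 were higher and 0 lower, with a median of 0.16, against 17.8% higher and 17.1% lower of all genes. Taken in either direction the share called is near the 34.9% of all genes. Aldolase (Aldoa) rose by 0.78 (SE 0.11), the sperm form of glyceraldehyde-3-phosphate dehydrogenase (Gapdhs), the step before phosphoglycerate kinase, by 0.75 (SE 0.17), hexokinase 1 (Hk1) by 0.56 (SE 0.14) and pyruvate kinase (Pkm) by 0.47 (SE 0.12). The lactate dehydrogenase genes Ldha and Ldhc were at -0.02 and -0.04 and were not called. No gene of these 5 lists was called between KO and WT, in pachytene spermatocytes or over both cell types.

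Further autosomal retrogenes with X-linked parents were counted in the same comparison. Of 16 listed, 14 were tested: 3 were higher and 4 lower in round spermatids, against 17.8% higher and 17.1% lower of all genes, with a median of -0.04, close to that of all genes. G6pd2, a copy of the glucose-6-phosphate dehydrogenase gene, rose by 1.61 (SE 0.20), the ubiquitin-like Ubl4b by 1.52 (SE 0.21) and Fam50b by 0.44 (SE 0.11). Zfa-ps, a processed copy of the zinc finger gene Zfx, fell by 1.77 (SE 0.14), the mitochondrial import gene Timm8a2 by 1.36 (SE 0.10), the transketolase-like Tktl2 by 1.04 (SE 0.12) and the polyadenylation factor gene Cstf2t by 0.67 (SE 0.15). Gk2, a glycerol kinase, read between log2 12.96 and 13.13 on all arrays and was at -0.03.

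Of 15 further parents listed, 10 were tested, and 5 were higher and 0 lower, with a median of 0.39. All of them are X-linked, and 40.2% of the X-linked genes tested were called higher, so the share is near that of the X. Cstf2 rose by 1.63 (SE 0.14), Tktl1 by 1.56 (SE 0.21), the RNA-binding protein gene Rbmx by 0.85 (SE 0.15), Zfx by 0.67 (SE 0.18) and the phosphoribosyl pyrophosphate synthetase gene Prps1 by 0.65 (SE 0.14). Among the pairs of these 10 parents, 3 had a retrogene that fell and a parent that rose: Cstf2t with Cstf2, Tktl2 with Tktl1 and Zfa-ps with Zfx. Fam50b rose while its parent Fam50a, at 0.14, was not called. Among the 5 pairs described first, none had a retrogene called lower and a parent called higher. Taken singly, 17.1% of all genes were called lower and 40.2% of X-linked genes higher. How often unrelated genes pair in this way was not tested.

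Zfa-ps was the member of these lists furthest apart between the genotypes. It read 7.46 in KO and 6.23 in WT round spermatids, and 9.38 and 8.97 in KO against 8.01 and 8.10 in WT pachytene spermatocytes. The KO arrays were above the WT arrays in both cell types, but the difference of 1.13 in pachytene spermatocytes did not pass in limma (adjusted p = 0.565). No gene of either list was called between KO and WT.

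**Figure D5:**
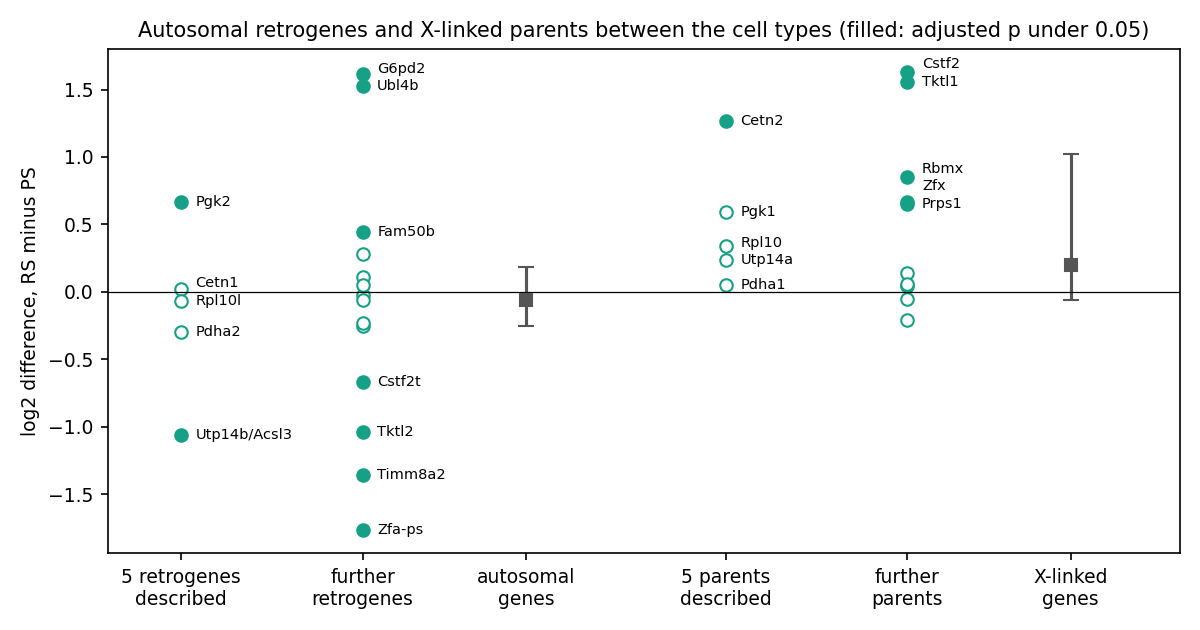
Log2 difference, round spermatids (RS) minus pachytene spermatocytes (PS) over both genotypes (y axis), for the 5 retrogenes and 14 further retrogenes, and the 5 parents and 10 further parents. Filled points have a limma adjusted p under 0.05, and the squares with bars are medians with quartiles of all autosomal and all X-linked genes tested. Further parents run from -0.21 to 1.63 and further retrogenes from -1.77 to 1.61.

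The genes whose pattern over the 6 arrays was most like that of each member were found by the root mean square difference of log2 values centred on each gene's mean. For Pgk1 they were the X-linked Zfx (0.10 log2 units) and the autosomal Nlrp5 (0.10), and for Pdha1 the X-linked Rps4x (0.02) and the autosomal Lrig3 (0.02). Zfx and Rps4x are themselves parents of retrogenes. The nearest genes of the other parents were autosomal: Capn13 (0.01) and Itga9 (0.02) for Utp14a, Btbd3 (0.03) and Selenom (0.03) for Rpl10, and Nabp1 (0.08) and Ppil6 (0.09) for Cetn2. For Pgk2 they were Sqor (0.06) and Faxc (0.06), and for the Utp14b and Acsl3 cluster Zbtb49 (0.03) and Ino80 (0.04). For Pdha2 they were Zfyve26 (0.01) and Eif5a (0.03). Some members hardly varied, such as Pdha1 with Rps4x (0.02), Cetn1 with Rpl27a (0.01) and Rpl10l with Nit1 (0.01). There a small distance says mainly that both genes were level. These distances describe 6 arrays and were not tested.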

How the data were processed

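Levels were measured on 6 Affymetrix MoGene 1.0 ST arrays of purified mouse germ cells, grouped by the sample titles. The authors deposited linear intensity per transcript cluster. Per the submitters' processing notes, RMA and Affymetrix Expression Console 1.1 were used, and neither options nor genome build is given in the sources used here. RMA normalizes across arrays, so median intensity varied little (197.3 to 217.7), and it compresses differences of dim clusters. The tests had assumed log2 values, and log2 was therefore computed from the deposited intensity.

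Among 35556 clusters, 21789 carry 1 gene symbol in the platform annotation and 1621 carry several, and 12146 were unnamed here. The cluster of highest mean stood for a gene. A gene was tested where any array reached log2 6. The cluster shared by Utp14b and Acsl3 was added as a feature of its own. All 10 symbols matched the RefSeq table of GRCm38.p6.

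Tests used limma 3.58.1 in R 4.3.3 (lmFit, eBayes, Benjamini-Hochberg over all genes, threshold 0.05). An additive fit of cell type and genotype gave the comparisons over both, and a fit of 4 groups gave those within a cell type or genotype and the interaction. Ratios of retrogene to parent were tested by exact permutation in scipy 1.17.1. The procedure was tested on simulated data. The number of arrays limits the precision. Replicate numbers are shared by the groups, but no label says what they mark, so the numbers were not taken as pairs. The deviations of same-numbered pachytene arrays from their group means correlated at -0.23.

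The members, partner lists, marker lists and the rule for named genes were chosen with earlier results of these data known. That rule names all 10 members, members of the further lists that passed a test or lie at the ends of a range, and the nearest genes by pattern. Alternatives covered the filter, a second quantile normalization, an offset of 32 before the log, the mean of a gene's clusters, a trended and robust prior, the replicate block and leaving out each array.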

Additional observations from a re-analysis of the deposited data

How the results depend on the processing

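The count of members called over both genotypes, 3 of 10, ran from 1 to 6 when arrays were left out: 1 without the WT round spermatid array, 6 without the first and 5 without the second KO pachytene array. Pdha2 was added by a second quantile normalization (adjusted p = 0.034), Rpl10 by an offset of 32 before the log (adjusted p = 0.0455) and Pgk1 by the mean of the within-genotype contrasts (adjusted p = 0.0219). The count in KO was 3 with a trended and robust prior (Pgk2, adjusted p = 0.0451, and Cetn2, adjusted p = 0.0454, were added) and ran from 0 to 2 with arrays left out. The count in WT ran from 1 to 4, and the count of ratios with a shift above 0 from 0 to 1. All counts of members called between KO and WT were 0 under every alternative, including 0 in pachytene spermatocytes and 0 over both cell types with the replicate block, which treats the numbers as pairs. A crossed pairing of the pachytene arrays, chosen after seeing the data, also called 0.

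The signs that turned all belonged to differences that were not called, and apart from KO minus WT of Cetn2 in pachytene spermatocytes (-0.23) these lay near 0. In WT, Pdha1 was at 0.0375 with a second quantile normalization, and in pachytene spermatocytes Rpl10 was at -0.0074 (KO minus WT) with the mean of its clusters. With arrays left out, the difference between the cell types over both genotypes ran from -0.0385 to 0.137 for Pdha1 and from -0.0241 to 0.0632 for Cetn1. In KO it ran from -0.0487 to 0.155 for Cetn1 and from -0.156 to 0.0044 for Rpl10l, and in WT from -0.0847 to 0.0078 for Pdha1 and from -0.0693 to 0.0578 for Cetn1. KO minus WT in pachytene spermatocytes ran from -0.0457 to 0.16 for Pdha1, from -0.13 to 0.21 for Utp14a, from -0.14 to 0.0621 for Cetn1, from -0.66 to 0.20 for Cetn2, from -0.0598 to 0.10 for Rpl10l and from -0.091 to 0.13 for Rpl10. The cause of these changes was not tested. Each spermatid genotype has 1 array, and the within-genotype fits have residual spread from the pachytene pairs alone. The pachytene values of Cetn2 are near the dim end of the arrays.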
